A study of Mus musculus with 9 samples.

Results

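The AP-1 FOS and JUN family was followed across 9 RNA-seq libraries of neonatal mouse ventricular myocytes (NMVMs), which are heart muscle cells isolated from newborn pups. The members were the 8 genes of the deposited count table with the symbols Fos, Fosb, Fosl1, Fosl2, Jun, Junb, Jund and Batf3, out of 55401 genes in all. All cultures came from wild-type C57BL/6J pups that were 1 day old, and were grown in DMEM with 10% FBS. The control group stayed in normal oxygen in complete medium. In the hypoxia group, DMEM without glucose and serum replaced the medium and the cells spent 6 h in a chamber sealed with an AnaeroPack-MIC, an oxygen absorber. The hypoxia + rSRGN group was treated in the same way, with recombinant serglycin (rSRGN), the core protein of a secreted proteoglycan, in the medium. Each group had 3 libraries. The number of pups behind a library and the rSRGN concentration were not given in the sources used here. Nothing in the labels says that the libraries of a group came from separate preparations, so the p-values measure only the spread between these samples, which may be technical.

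AP-1 is a dimer of basic leucine zipper (bZIP) proteins that binds the TGACTCA element and its cAMP-response relative TGACGTCA. FOS proteins need a JUN partner to bind DNA, whereas JUN proteins also pair with each other and with proteins of the ATF, MAF and BATF groups. Several members are immediate early genes, which are transcribed within minutes of growth factors, stretch or stress, and whose mRNA is short-lived. In heart muscle, AP-1 genes are known to respond to stretch, hypertrophic signals and ischaemia.

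The members are spread over 7 chromosomes of the mouse genome (GRCm38). In the FOS class, Fos lies at chr12:85473890-85477273 on the plus strand, Fosb at chr7:19302696-19310051 on the minus strand, Fosl1 at chr19:5447547-5455946 on the plus strand and Fosl2 at chr5:32135801-32157842 on the plus strand. In the JUN class, Jun lies at chr4:95049034-95052222 on the minus strand, Junb at chr8:84976910-84978718 on the minus strand and Jund at chr8:70698949-70700616 on the plus strand. Batf3 lies at chr1:191097847-191108945 on the plus strand. The FOS genes had 4 exons each in the annotated transcript examined, while Jun, Junb and Jund consisted of 1 exon, without an intron.

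RefSeq promoter sequence (GRCm38.p6) was held for 7 of the 8 members, Fosl1 being the exception. The 250 bases before the RefSeq start are shown for Fos, Fosb, Junb and Jun, because these promoters held a short cAMP-response core (TGACG) or the AP-1-like letters TGACATCA. Capitals mark TGACG in Fos, Fosb and Junb. In Jun they mark TGACATCA and, closer to the start, a match to the MEF2 consensus. Each sequence is written 5′ to 3′ on the strand of the gene.
Fos promoter, chr12:85473640-85473889, plus strand: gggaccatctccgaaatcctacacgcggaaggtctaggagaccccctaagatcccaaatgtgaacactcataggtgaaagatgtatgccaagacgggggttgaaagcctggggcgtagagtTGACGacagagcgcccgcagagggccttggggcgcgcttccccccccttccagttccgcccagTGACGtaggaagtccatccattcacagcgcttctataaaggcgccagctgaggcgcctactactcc
Fosb promoter, chr7:19310046-19310295, minus strand: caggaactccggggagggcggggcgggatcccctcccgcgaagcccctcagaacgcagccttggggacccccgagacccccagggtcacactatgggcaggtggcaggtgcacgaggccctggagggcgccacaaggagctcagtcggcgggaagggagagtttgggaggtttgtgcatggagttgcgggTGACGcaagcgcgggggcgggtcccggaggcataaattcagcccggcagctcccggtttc
Junb promoter, chr8:84978749-84978998, minus strand: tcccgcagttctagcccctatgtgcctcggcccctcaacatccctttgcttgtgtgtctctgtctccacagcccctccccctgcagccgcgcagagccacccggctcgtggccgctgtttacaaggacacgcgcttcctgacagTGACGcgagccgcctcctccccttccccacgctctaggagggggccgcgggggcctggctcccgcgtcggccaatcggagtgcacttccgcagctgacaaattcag
Jun promoter, chr4:95052223-95052472, minus strand: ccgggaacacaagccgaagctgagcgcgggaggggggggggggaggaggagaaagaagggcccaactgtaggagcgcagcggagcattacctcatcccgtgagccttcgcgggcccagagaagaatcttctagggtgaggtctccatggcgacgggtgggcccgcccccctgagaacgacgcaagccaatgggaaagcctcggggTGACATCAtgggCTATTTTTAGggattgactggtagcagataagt

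Motifs were searched on both strands of 32851 RefSeq promoters. TGACG was found at 2 places in Fos, from -129 to -125 and from -66 to -62 relative to the start. It was found from -60 to -56 in Fosb and from -106 to -102 in Junb, and 17.8% of all promoters held it. The Jun promoter held TGACATCA from -45 to -38 and the MEF2 consensus from -33 to -24, letters held by 2.93% and 2.92% of all promoters. The full elements TGACTCA and TGACGTCA and the CArG box bound by serum response factor were in 0 of the 7 member promoters. In the same order, 4.46%, 1.55% and 1.47% of all promoters held them, and TGACGTCA contains TGACG. Only the 250 bases before the RefSeq start were searched, so elements farther upstream could not be found. The 0 therefore does not show that a member gene lacks these elements. The hypoxia core ACGTG was in Batf3 and Jund (16.6% of all promoters), and the heat shock letters GAANNTTC were in Fosl2 and Jun (6.69%). The RefSeq start of Jund lay 1210 bases before the gene start of the count table, and those of Fosl2 and Batf3 lay 671 and 567 bases inside the gene, so the windows of these 3 genes are not those of the counted start. A match is a description of letters and not of a bound site.

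In the 3′ UTRs, the pentamer ATTTA, the core of the AU-rich elements through which many early response mRNAs are degraded, occurred 8 times in Fosl2, 4 times each in Fos and Jun, 2 times in Junb and 1 time each in Fosb, Fosl1 and Jund. It was absent from Batf3. The median over 20653 genes was 1. Per kilobase, Fos had 4.91, Junb 4.12 and Jun 3.24 pentamers, while Fosl2, with a 3′ UTR of 4653 bases against a median of 797, had 1.72, a density that 39.4% of genes reached. The overlapping pair in the Fos 3′ UTR is shown with its pentamers in capitals, since Fos is the textbook example of such an element.
Fos 3′ UTR, chr12:85477109-85477121, plus strand: caATTTATTTAtt

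Paired-end fragments were counted per gene, and levels are given as CPM, which are counts relative to the TMM-scaled library size. Total counts were 21669017 to 22781557 in the control, 16583985 to 18148474 in the hypoxia and 16640239 to 20826701 in the hypoxia + rSRGN libraries. Of the 55401 genes, 16762 passed a filter on low counts and were tested with edgeR's quasi-likelihood test. Genes with an adjusted p (Benjamini-Hochberg) under 0.05 that also moved 1.5-fold or more were called. Of the 8 members, 7 passed the filter, and each of these had at least 20 counts in every library. Cardiomyocyte markers (Myh6, Tnnt2 and 6 others), which define the labelled cell type, were present in every group, but their summed level was 32340 to 39750 CPM in control and 2882 to 4270 CPM in hypoxia. Fibroblast markers (Col1a1, Col1a2 and 5 others) were at 6383 to 7416 CPM in control and 13640 to 15530 CPM in hypoxia, so RNA of both cell types was measured.

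**Figure D1:**
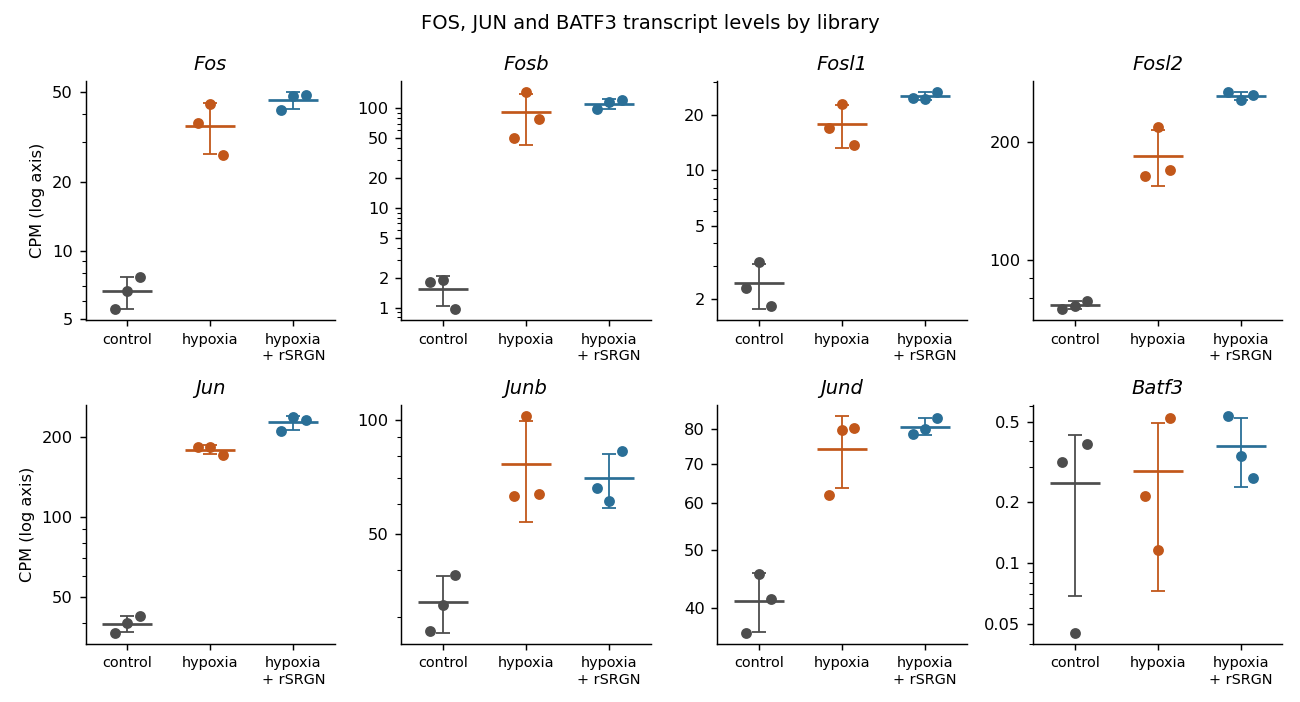
Level of each member in CPM (vertical log axes, a separate range for each gene) in control, hypoxia and hypoxia + rSRGN. Points are the 3 libraries of a group, horizontal bars the mean and whiskers the SD. In all panels but Batf3 the 3 control points lie below the 6 points of the other groups.

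The first comparison, hypoxia against control, addressed how the family responds to 6 h without oxygen, glucose and serum, which cannot be told apart here. All 7 tested members rose, and none of their control and hypoxia libraries overlapped. Fosb rose most, by 58.1-fold, and Jund least, by 1.80-fold. Of all genes tested, 26.4% were called higher and 51.6% were called in either direction. In 37.7%, every hypoxia library was above every control library. The median log2 fold change was 2.18 over the 7 members and 0.05 over all genes tested.

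Fosb encodes a FOS protein with a full activation domain and, by splicing, a truncated form that persists in cells. Its control libraries had 1.80, 1.90 and 0.97 CPM, and its hypoxia libraries had 50.6, 145.7 and 77.8 CPM. It was low in control, with 102 counts over the 3 libraries, and it varied more between the hypoxia libraries than any other tested member. The log2 fold change was 5.86 (SE 0.32), which corresponds to 58.1-fold (95% interval 36.5 to 92.3, adjusted p = 3.05e-13), and 0.656% of the genes tested had a log2 fold change as high.

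Fos, the founding member and an immediate early gene, was at 5.53, 6.64 and 7.68 CPM in control. In hypoxia it reached 36.4, 44.1 and 26.3 CPM, so that the lowest hypoxia library was still above each control library. Its log2 fold change was 2.43 (SE 0.16, adjusted p = 5.66e-12), or 5.39-fold with an interval of 4.29 to 6.76.

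Fosl1 encodes FRA1, a FOS protein without the transactivation domain of FOS. It had 2.29, 3.16 and 1.84 CPM in control and 17, 23.1 and 13.7 CPM in hypoxia. The log2 fold change of 2.87 (SE 0.19, adjusted p = 7.48e-12) was higher than that of Fos. Fosl1 shares 1163 exonic bases with Ccdc85b on the opposite strand, and strand was not used in the counting, so their fragments cannot be told apart there. Ccdc85b itself was at 14.2 to 18.3 CPM in control and 26.9 to 32.0 CPM in hypoxia, with a log2 fold change of 0.80 (SE 0.11, adjusted p = 1.17e-06).

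Fosl2, which encodes FRA2, had the highest CPM of the FOS class in control. It was at 75.2, 76.5 and 78.7 CPM there, a narrow range, and at 164.4, 219.1 and 170.2 CPM in hypoxia. The rise of 1.26 on the log2 scale (SE 0.09, adjusted p = 2.23e-11) was the smallest of the FOS class.

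Jun encodes c-Jun, the substrate of the JNK kinases and the partner most FOS proteins are studied with. Its level was 36.7, 40.1 and 42.5 CPM in control and 183.7, 184.1 and 171.6 CPM in hypoxia. The spread within each group was small, and the log2 fold change of 2.18 (SE 0.08) had the lowest adjusted p of the family (2.56e-16). Jun overlaps the antisense transcript Junos by 232 exonic bases. Junos had 46 to 59 counts per group, against 2584 to 12923 for Jun.

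Junb, which encodes a JUN protein with weaker transactivation than c-Jun, was at 27.6, 32.4 and 38.8 CPM in control. It was at 62.8, 102.6 and 63.6 CPM in hypoxia, where the second library stood above the other two. The log2 fold change was 1.21 (SE 0.15, adjusted p = 3.49e-07).

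Jund, the JUN gene known for steady expression in resting cells, was at 36.3, 45.5 and 41.4 CPM in control and 62.0, 79.7 and 80.3 CPM in hypoxia. The rise of 0.85 on the log2 scale (SE 0.10, adjusted p = 8.25e-08) was the smallest of the tested members. With offsets for GC content and gene length, an alternative chosen after seeing the data, the log2 fold change of Jund was 0.09 (adjusted p = 0.369). The GC content of its transcript was 67.1%, against a median of 49.6% over all genes. Under the same offsets the other 6 tested members were still called, and Junb (62.6% GC) had a log2 fold change of 0.67. Jund shares 877 of its 1668 exonic bases with the antisense gene Gm11175, and strand was not used in the counting. Gm11175 had 0 counts in each group. What the shared part does to the counted level of Jund was not tested.

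Batf3, a partner of JUN proteins known for its role in dendritic cells, was not tested. It had 7, 1 and 8 counts in the control libraries, 4, 2 and 9 in the hypoxia libraries and 9, 7 and 5 with rSRGN. The groups overlapped at this depth. With a looser filter, the log2 fold change was 0.14 for hypoxia against control (95% interval -1.47 to 1.75, edgeR adjusted p = 0.954), and differences within this interval were not detectable at this depth.

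The rise of the family went with the change in marker levels. All 8 cardiomyocyte markers were called lower in hypoxia, and 5 of 7 fibroblast markers were called higher, with medians of -3.79 and 0.91 on the log2 scale. The 6 macrophage markers summed to 36.3 to 42.0 CPM in control and 93.3 to 149.0 CPM in hypoxia, and this sum was carried by Cx3cr1 (0.045 to 0.676 CPM in control and 81.9 to 138.8 CPM in hypoxia), while the other 5 were called lower. Smooth muscle markers were at 1291 to 1549 and 1869 to 2194 CPM, a sum carried by Acta2, which was not called, and 1 of the 4 was called higher and 1 lower. Endothelial markers were at 56.6 to 77.9 and 37.0 to 43.3 CPM, and neutrophil markers at or near 0 (at most 0.46 CPM in these groups). The part of these marker levels in the rise of the AP-1 genes was not tested. In bulk RNA, fewer cells of a type and less RNA per cell cannot be told apart.

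**Figure D2:**
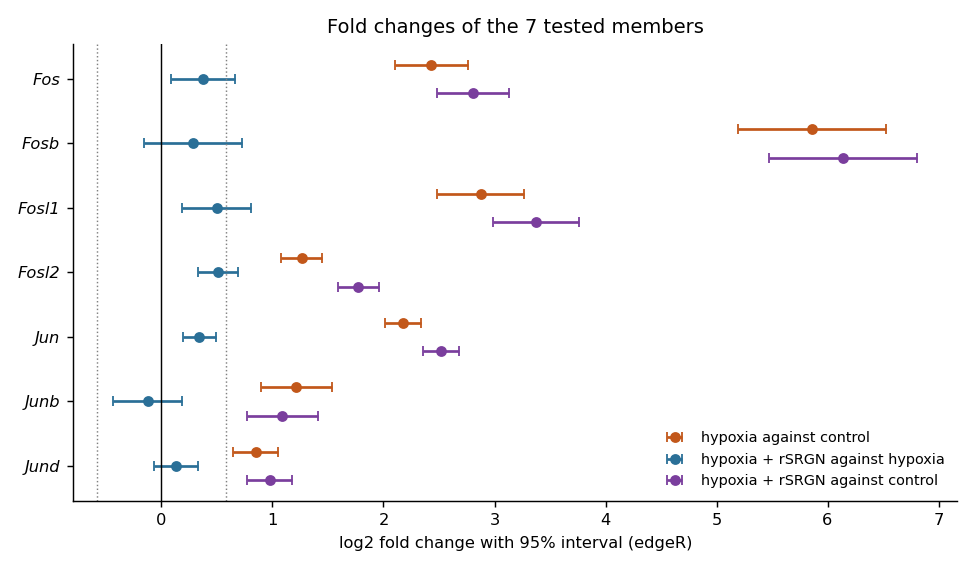
Log2 fold change (horizontal axis) of the 7 tested members in the 3 comparisons, with 95% intervals from edgeR. Dotted lines mark the 1.5-fold limit. The comparisons of either hypoxic group with control lie to the right of the limit for each gene, while the estimates for hypoxia + rSRGN against hypoxia lie between the limits.

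The second comparison, hypoxia + rSRGN against hypoxia, addressed what the added protein changes within the same medium and oxygen. It called 0 of the 7 tested members with edgeR, against 2.27% of all genes called higher and 3.13% in either direction. DESeq2 also called 0. At an unadjusted p below 0.05, 4 members passed, as did 29.4% of all genes. Fosl1, Fosl2 and Jun passed the adjusted p but not the fold limit, and in these 3 genes each rSRGN library was above each hypoxia library. Of all genes tested, 10.5% were higher at the adjusted p alone, and 16.5% had no overlap in this direction.

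Fosl2 had 268.0, 255.8 and 264.1 CPM with rSRGN, beside 164.4, 219.1 and 170.2 CPM in hypoxia. Its log2 fold change was 0.51 (SE 0.09, adjusted p = 0.000483), or 1.42-fold with an interval of 1.26 to 1.61. Jun had 212.3, 238.5 and 232.8 CPM with rSRGN. All 3 values were above the highest hypoxia value of 184.1 CPM, and the log2 fold change was 0.34 (SE 0.07, adjusted p = 0.00298). Fosl1 had 24.7, 24.5 and 26.7 CPM, just above the 23.1 CPM of the second hypoxia library, and a log2 fold change of 0.50 (SE 0.15, adjusted p = 0.0273).

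The other 4 tested members overlapped between the groups. Fos had 41.5, 48.0 and 48.8 CPM with rSRGN, and its log2 difference was 0.37 (95% interval 0.09 to 0.66, adjusted p = 0.0665). Fosb had 97.4, 115.5 and 119.7 CPM, a narrower range than in hypoxia, with a difference of 0.28 (interval -0.16 to 0.72, adjusted p = 0.406). Junb had 66.0, 61.0 and 82.8 CPM and was the only tested member with a negative estimate, -0.13 (interval -0.44 to 0.18, adjusted p = 0.626). Jund had 78.5, 80.1 and 83.8 CPM, with a difference of 0.13 (interval -0.07 to 0.33, adjusted p = 0.405). Whether the members differ from each other in their response to rSRGN was not tested.

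Several of these estimates changed with the libraries used. Of the 3 hypoxia libraries, the second was the highest for 6 of the 7 tested members. Without it, edgeR called 3 members higher with rSRGN, namely Fosb (log2 fold change 0.79), Fosl1 (0.72) and Fosl2 (0.65), in a fit that called 699 of 17466 genes, 70.96% of them higher. Without the first hypoxia library, the estimate for Fosb was -0.01. Without hypoxia library 3, Fos was at 0.20 and Fosl1 at 0.34. The adjusted p of Fosl1 was 0.0685 without hypoxia library 1, 0.155 without hypoxia library 3, and 0.0665, 0.0709 and 0.0849 without rSRGN library 1, 2 or 3, so that it did not pass in these fits. Fosl2 and Jun passed the adjusted p in every fit that left out a library, with log2 fold changes of 0.43 to 0.65 and 0.31 to 0.39. Fos, with 0.0665 here, had an adjusted p of 0.0439 with DESeq2 and 0.047 with RLE scaling. With edgeR it had 0.0473 with at least 10 counts in every library and 0.00419 with at least 1 count in all libraries together. It had 0.00294 without hypoxia library 2. Across the alternatives, 2 to 5 members passed the adjusted p in this comparison. The second hypoxia library had the lowest summed level of fibroblast markers in its group, 13640 CPM, beside 15530 and 15180 CPM. It was also lowest for macrophage markers (93.3 CPM, beside 149.0 and 131.5) and highest for smooth muscle markers (2194 CPM, beside 1869 and 2085). For cardiomyocyte and endothelial markers it lay between the other libraries of its group. With offsets for GC content and gene length, Fosl1 alone was called, with a log2 fold change of 0.70. Of the cardiomyocyte markers, 7 of 8 were called higher with rSRGN, and their sum was 5317 to 5584 CPM. The part of these levels was not tested.

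In hypoxia + rSRGN against control, all 7 tested members were called higher. The share of all genes called higher was 24.1%, the share called in either direction was 48.8%, and 36.6% had each rSRGN library above each control library. The log2 fold changes were 6.14 for Fosb (SE 0.32), 3.37 for Fosl1 (SE 0.19), 2.80 for Fos (SE 0.16) and 2.52 for Jun (SE 0.08). They were 1.77 for Fosl2 (SE 0.09), 1.09 for Junb (SE 0.15) and 0.98 for Jund (SE 0.10). The adjusted p of edgeR's quasi-likelihood test ranged from 5.94e-17 for Jun to 1.83e-06 for Junb. This comparison shares its control libraries with the first, and its values are not a second test of the same rise. With offsets for GC content and gene length Jund was at 0.41 here, below the fold limit.

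Per kilobase of gene length, the order of the members differed between the groups. The full exonic length was used. Of it, 877 of 1668 bases in Jund and 1163 of 2033 in Fosl1 are shared with a gene on the opposite strand. What this does to the order and to the shares given below was not tested. In control it ran from Jund (24.6 ± 2.78 CPM per kilobase, SD, n = 3) through Junb (18.2 ± 3.12), Jun (12.5 ± 0.91), Fosl2 (7.93 ± 0.18), Fos (2.81 ± 0.46) and Fosl1 (1.20 ± 0.33) to Fosb (0.25 ± 0.08) and Batf3 (0.16 ± 0.11). Only Fosb and Batf3 overlapped among these neighbours. In hypoxia, Jun had the highest mean with 56.4 ± 2.24, followed by Jund with 44.4 ± 6.24 and Junb with 42.2 ± 12.6. Junb overlapped both Jund and Jun, since its second library (56.7) was above the lowest of Jun (53.8). Fosl2, Fos, Fosb and Fosl1 followed with 19.1, 15.1, 14.6 and 8.81 CPM per kilobase, and each overlapped the next. With rSRGN, Jun had 71.5 ± 4.32, Jund 48.5 ± 1.61, Junb 38.7 ± 6.31 and Fosl2 27.1 ± 0.65, without overlap between neighbours. Fos and Fosb, with 19.6 ± 1.69 and 17.8 ± 1.91, overlapped, and Fosl1 (12.4 ± 0.59) and Batf3 (0.24 ± 0.09) came last.

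**Figure D3:**
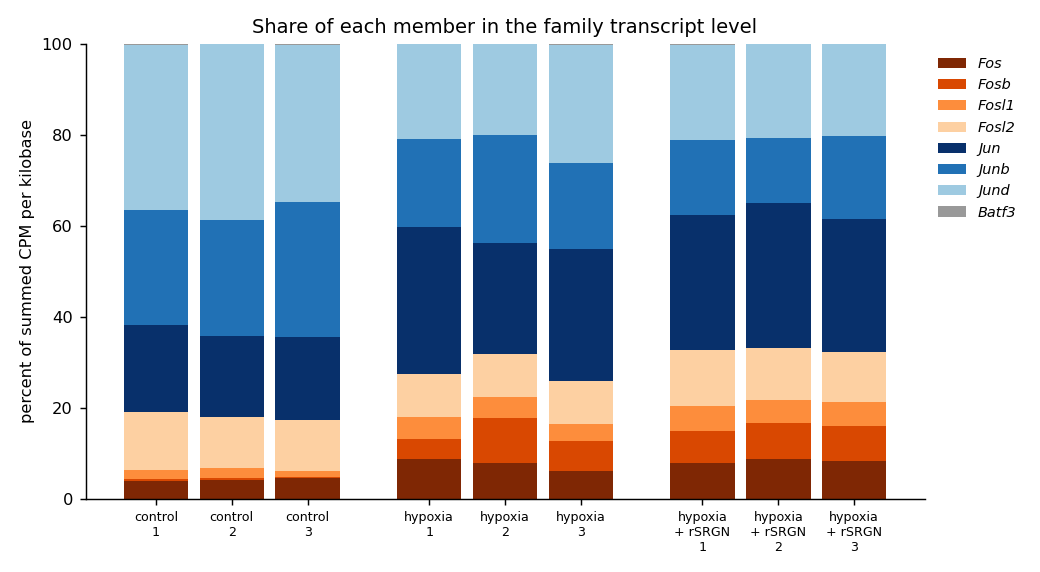
Share of each member in the summed CPM per kilobase of the 8 genes (vertical axis, percent) for each of the 9 libraries. FOS genes are in orange to brown at the bottom, JUN genes in blue above them and Batf3 in grey. The FOS class takes 17.2 to 19.2% in the control libraries, 25.9 to 31.9% in hypoxia and 32.2 to 33.1% with rSRGN.

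The makeup of the family pool was compared within each library, where a scaling factor for the whole library has no effect. The offsets for GC content and gene length, which changed the members by different amounts, were not applied to these shares. Jund took 36.4 ± 2.24% of the summed level per kilobase in control, 22.3 ± 3.23% in hypoxia and 20.6 ± 0.47% with rSRGN (SD, n = 3). Jun took 18.5 ± 0.62%, 28.5 ± 4.05% and 30.3 ± 1.42% in the same order. The share of Junb was 26.8 ± 2.50%, 20.7 ± 2.66% and 16.4 ± 1.97%. Fosb went from 0.375 ± 0.14% to 7.02 ± 2.64% and 7.52 ± 0.48%, while Fosl2 had 11.8, 9.50 and 11.5%. The FOS class as a whole took 18.1 ± 0.98%, 28.4 ± 3.14% and 32.6 ± 0.43%. On the log2 scale the ratio of FOS-class to JUN-class level was -2.18 ± 0.10 in control, -1.34 ± 0.22 in hypoxia and -1.04 ± 0.03 with rSRGN, and no groups overlapped. The difference between hypoxia and control was 0.84 on this scale, and 0.34 when levels were not divided by gene length. In that form the second hypoxia library (0.24) lay above rSRGN libraries 2 and 3 (0.23 and 0.20), so the hypoxia and rSRGN groups overlapped. The shares, and the ratio where it was divided by length, rest on the full gene lengths, including the shared bases of Jund and Fosl1. These values of summed members are given without a test.

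**Figure D4:**
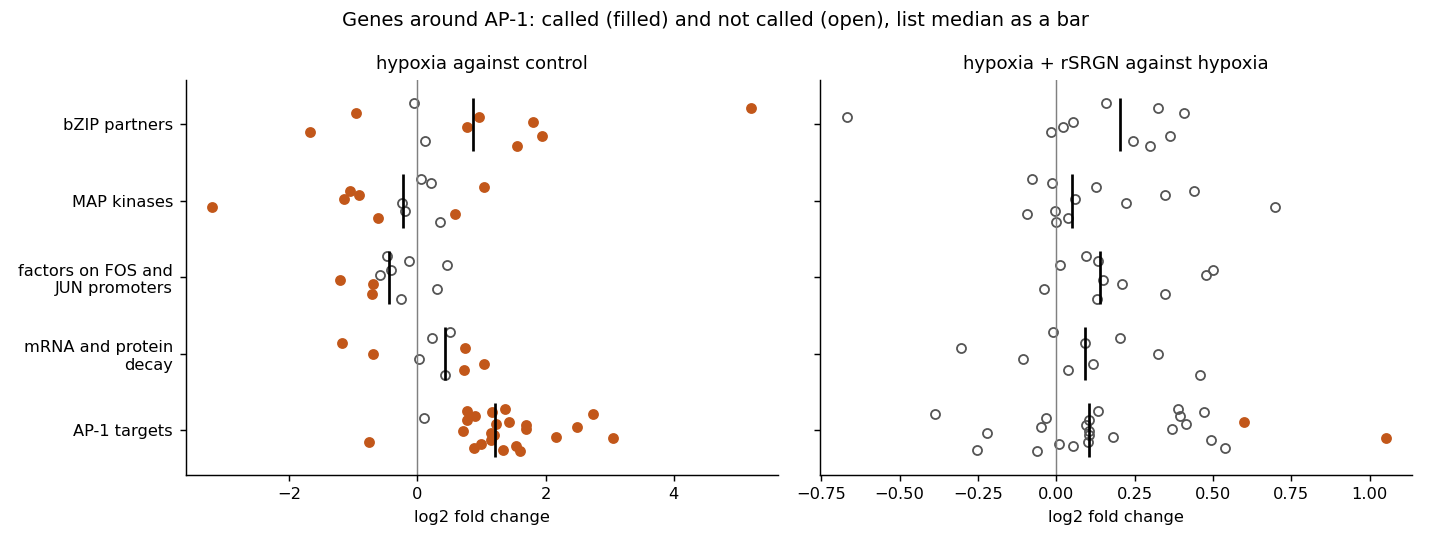
Log2 fold change (horizontal axes, with different ranges) of the tested genes of 5 lists around AP-1, for hypoxia against control (left) and hypoxia + rSRGN against hypoxia (right). Filled points were called, open points were not, and the black bar is the median of the list. On the left, 22 of 24 target genes are called to the right of 0, and on the right 2 are.

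The genes around AP-1 were described by lists, whose counts are to be read against the 26.4% of all genes called higher and the 51.6% called in either direction in hypoxia against control. Of the bZIP partners, 10 of 11 were tested, and 6 rose and 2 fell in hypoxia against control (median 0.87 on the log2 scale). Atf3, a stress-induced gene whose product pairs with JUN proteins, rose by 5.21 on the log2 scale (SE 0.11, edgeR adjusted p = 2.34e-19), from 8.36 to 11.2 CPM in the control libraries to 343 to 430 CPM in hypoxia. Maff, which encodes a small MAF protein, rose by 1.94. Atf7, which encodes a relative of ATF2, fell by 0.95.

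Of the 12 MAP kinases and MAP kinase kinases, 2 rose and 5 fell, with a median of -0.22. The share called was near the 51.6% of all genes. The count of 7 was 6 with DESeq2 and with RLE scaling, and 5 with the offsets for GC content and gene length. Map2k3, which encodes a kinase of p38, rose by 1.05 on the log2 scale and Mapk3, which encodes ERK1, by 0.59, close to the fold limit of 0.585 on that scale. Mapk10, which encodes a JNK known from brain and heart, fell by 3.19 and Map2k7, which encodes an activator of JNK, fell by 1.14. Mapk10 was at 8.26 to 11.8 CPM in control and 0.695 to 1.27 CPM in hypoxia. Kinase activity was not measured, and these are transcript levels.

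Of 10 genes for transcription factors known to act on the Fos and Jun promoters, 0 were called higher and 3 were called lower, with a median of -0.44, beside the 51.6% of all genes called in either direction. DESeq2 called 4 of them in either direction, and 9 passed an unadjusted p below 0.05 with edgeR, as did 73% of all genes. Mef2c, which encodes a MEF2 factor of muscle, fell by 1.20 (SE 0.09, edgeR adjusted p = 4.9e-11). Mrtfb, which encodes a cofactor of serum response factor, fell by 0.71.

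Of 9 genes for the decay of FOS and JUN mRNA or protein, 3 rose and 2 fell, with a median of 0.44, a share near the 51.6% of all genes. Zfp36, which encodes the ATTTA-binding decay factor tristetraprolin, rose by 1.05 on the log2 scale (SE 0.13, edgeR adjusted p = 2.2e-07). Hnrnpd, which encodes the AU-rich element binding protein AUF1, rose by 0.74. Fbxw7 and Itch, which encode ubiquitin ligase components that act on JUN proteins, fell by 1.18 and 0.68.

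Of 27 textbook AP-1 target genes, 24 were tested, and 22 rose and 1 fell, with a median of 1.21, where 26.4% of all genes were called higher. Ptgs2, which encodes the prostaglandin synthase COX-2, rose by 3.05 (SE 0.19, edgeR adjusted p = 3.74e-12), from 17.2 to 25.1 CPM in control to 126 to 250 CPM in hypoxia. Edn1, which encodes the precursor of the vasoconstrictor endothelin, rose by 2.74. Spp1, which encodes osteopontin, fell by 0.75. Some of these genes, such as Vim and Timp1, are expressed by fibroblasts, and 5 of 7 fibroblast markers were called higher in hypoxia too. The part of fibroblast RNA in the levels of the targets was not tested. The list was put together with earlier results of these data known, and its count is not independent evidence of a direction.

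In hypoxia + rSRGN against hypoxia, 0 of the 41 tested genes of the 4 lists other than the targets were called with edgeR, 16 passed an unadjusted p below 0.05 and DESeq2 called 0. Over all genes, 3.13% were called and 29.4% passed the unadjusted p. Of the 24 tested targets, 2 rose and 0 fell, beside 2.27% of all genes called higher. Ptgs2 rose by 1.05 on the log2 scale (SE 0.17, edgeR adjusted p = 0.00036), from 126 to 250 CPM in hypoxia to 320 to 379 CPM with rSRGN. Hbegf, which encodes a growth factor of the EGF family, rose by 0.60 (SE 0.13, adjusted p = 0.00328), from 123 to 201 CPM to 209 to 239 CPM. The call for Hbegf was close to the fold limit. The count of 2 called targets was 1 with library size alone and without hypoxia library 1, hypoxia library 3 or rSRGN library 2. It was 4 without hypoxia library 2. The median over the 24 targets was 0.10, against -0.03 over all genes tested.

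For each tested member, the non-member genes closest in pattern were named by Pearson's correlation of log2 CPM across the 9 libraries, among 14250 genes. The libraries form 3 groups, and most of the variation is between control and the rest, so high values are common. The closest genes were Prkar2b and Adamts1 for Fos, Phtf1 and Capn2 for Fosb, Plk3 and Gdf15 for Fosl1, Rapgef2 for Fosl2, Myo10 and Gas7 for Jun, Gm5345 and Mllt11 for Junb, and Mfsd11 and Gm7143 for Jund. The correlation was lowest for Mllt11 with Junb (0.985) and highest for Phtf1 with Fosb (0.999). Among the members themselves, Fos and Jun had the highest value (0.992), and Fosl2 and Junb the lowest (0.891). Junb was the member farthest from the others, with values of 0.891 to 0.931.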

How the data were processed

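RNA was extracted with Trizol, enriched for poly(A) RNA and sequenced on an Illumina NovaSeq instrument. The authors deposited whole-number counts of fragments per gene, without normalization. The file header names featureCounts (version 2.0.1), paired-end counting without strand and GENCODE mouse release 25, and the processing notes of the submitters name HISAT2 and mm10. Libraries were grouped by their titles and treatment labels. All 9 columns of counts were used.

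Counts were analysed in R (version 4.3.3) with edgeR (version 4.0.16). After filterByExpr and TMM scaling, 1 model with a mean for each group was fitted to the 9 libraries, and the quasi-likelihood test was adjusted by Benjamini-Hochberg over the 16762 genes. The script was tested on simulated data. Any 2 libraries of a group differed by more than sampling noise (chi-square per degree of freedom 3.63 to 13.1). The value was 13.1 for hypoxia libraries 1 and 2, 12.7 for 2 and 3, and 6.68 for 1 and 3. CPM per kilobase used the gene length of the table. The ratio of classes is given without a test.

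The 8 members, the pathway lists and the marker lists were chosen with earlier results of these data known. Of each list, the called genes of at least 1 CPM on average that rose or fell most were named, up to 2 in each direction. For similar patterns, the 2 non-member genes with the highest correlation were named (log2 CPM, prior count 2). Some genes that these rules select are not reported here. Vim and Timp1 were named after their values were seen.

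Alternatives were DESeq2 (version 1.42.0), RLE scaling, library size alone, other filters, the unadjusted p, no fold limit, a fit restricted to the compared groups, a replicate block and each library left out. After seeing the data, offsets for GC content and gene length were added (16743 of 16762 genes had both values). Promoters came from RefSeq (GRCm38.p6), and 3′ UTRs, exon numbers and GC content from GENCODE release M21 (GRCm38). Plots were drawn with matplotlib.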

Additional observations from a re-analysis of the deposited data

How the results depend on the processing

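The 7 calls among the members against control, in either hypoxic group, were made under each alternative except the offsets for GC content and gene length, which lost Jund. Without a fold limit, the calls in hypoxia against control were 11 MAP kinases, 9 promoter factors and 8 decay genes, with 11876 of all 16762 genes. In hypoxia + rSRGN against hypoxia they were 3 members, 5 partners, 2 MAP kinases, 3 promoter factors, 3 decay genes and 11 targets, with 2790 of all genes, and in hypoxia + rSRGN against control 10 MAP kinases, 6 promoter factors and 8 decay genes, with 11503 of all genes. These counts are larger because the limit was taken away. In hypoxia + rSRGN against hypoxia, the unadjusted p called 1 MAP kinase, the offsets called 1 member and 1 decay gene, and library size alone called 1 target. Leaving out each library in turn gave 0 to 3 members, 0 to 1 promoter factors and 1 to 4 targets there, with the highest counts without the second hypoxia library and 1 target without hypoxia library 1, hypoxia library 3 or rSRGN library 2. The log2 fold change of Fosb then ranged from -0.0099 to 0.793 and that of Junb from -0.256 to 0.147. The estimates that changed sign were Fosb without the first hypoxia library, Junb without the second, and Junb with the offsets (0.0543). The cause was not tested. Of the genes called in that comparison, 72.57% were higher, against 84.33% with DESeq2 and 82.16% with the offsets, and against 60.51% with the unadjusted p, 62.62% without hypoxia library 3, 63.3% without a fold limit and 66.86% with library size alone. Library size alone moved the median of all genes in hypoxia against control to 0.122.

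No effect shared by libraries of the same replicate number was seen, as their deviations from the group means correlated at -0.073 to 0.0727. The labels do not say whether such libraries were paired. With the replicate block, 7, 0 and 7 members were called in the 3 comparisons, and the calls over all genes were 8550 in hypoxia against control, 495 in hypoxia + rSRGN against hypoxia and 8096 in hypoxia + rSRGN against control. With 3 libraries in a group, Batf3 at 1 to 9 counts and Fosb and Fosl1 in control were limited by depth.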
